A study of Mus musculus with 12 samples.

Results

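The liver supplies most of the complement and coagulation proteins of the blood, and the 40 genes described here were chosen by name as liver-made factors of those systems: 19 of complement and 21 of coagulation, fibrinolysis and their inhibitors. The choice was made with earlier results of these data known, so counts of these genes beside all tested genes are descriptive. Of the 40, 39 were found among the 46983 genes listed in the files, and all 39 passed the filter on low counts that left 15664 genes for testing. Klkb1, which encodes plasma prekallikrein, could not be matched to a gene of that name in the files and was not analysed here. The libraries were made from RNA of primary mouse hepatocytes and fall into 4 groups of 3: AEG-1-L24K/L25H (knock-in, KI) cells given CP775146 at 2.5 µM for 24 h, untreated KI cells, AEG-1-WT (wild type, WT) cells given CP775146 in the same way, and untreated WT cells. AEG-1 is the protein of the gene Mtdh, and the knock-in exchanges a pair of its leucines in every cell of the animal. CP775146 is an agonist of PPAR-alpha, the nuclear receptor that switches on fatty acid oxidation in liver. The mice were of the C57BL/6/J strain, the allele was made by CRISPR/Cas9, WT and KI animals were littermates from matings of heterozygotes, and they were fed regular chow. The labels give neither the age of the donors nor a vehicle for the untreated cells, and they leave unsaid whether each library had its own animal or culture. Genotype therefore cannot be told apart from hepatocyte preparation, and CP775146 cannot be told apart from a vehicle. The p-values measure the spread between libraries, which may be technical.

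Complement is a cascade of proteases and pore-forming proteins that marks and lyses foreign cells. The lectin and classical pathways converge on cleavage of C4, C2 and C3, the alternative pathway amplifies C3 cleavage, and the terminal components assemble the membrane attack complex. Coagulation is a cascade of the same design, in which vitamin K-dependent proteases and their cofactors generate thrombin, thrombin turns fibrinogen into fibrin, and plasmin dissolves the clot again. Hepatocytes make most of these proteins, and many of their genes are also acute-phase genes that respond to interleukins.

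Levels are given as CPM, the count of a gene relative to the size of its library, with library sizes scaled by the trimmed mean of M values (TMM). A change was called where edgeR's quasi-likelihood test, with Benjamini-Hochberg adjustment over the 15664 genes, gave an adjusted p below 0.05. Total counts were 26956032 to 34885451 per library, so that 3 counts equalled 0.086 to 0.111 CPM. Libraries of a group varied by 2.63% and 2.6% (biological coefficient of variation) in KI cells with and without CP775146, and 5.33% and 5.1% in WT cells with and without it. Alb, the albumin gene, took 6.55 to 6.83% of all counts in KI cells with CP775146, 7.25 to 7.73% in untreated KI cells, 9.84 to 10.2% in WT cells with CP775146 and 10.1 to 10.3% in untreated WT cells. Mtdh was at 190 to 197 CPM in KI cells with CP775146, 171 to 175 CPM in untreated KI cells, 177 to 186 CPM in WT cells with CP775146 and 157 to 174 CPM in untreated WT cells. Counts per gene cannot show an amino acid exchange and give no check of the genotype.

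The 39 genes together took 1.36 to 1.38% of the counts in KI cells with CP775146, 1.66 to 1.68% in untreated KI cells, 1.72 to 1.75% in WT cells with CP775146 and 1.96 to 1.99% in untreated WT cells. Their summed level was 13431 ± 70.7, 15663 ± 84.4, 18695 ± 153 and 19944 ± 248 CPM in the same order (SD, n = 3 each). These ranges did not overlap between any pair of the 4 groups. C3 alone held 4123 ± 82.6 CPM of that sum in KI cells with CP775146 and 5391 ± 169 CPM in untreated WT cells. In bulk RNA, fewer cells of a type and less RNA per cell cannot be told apart.

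Levels of different genes were compared as CPM per kilobase of exon, averaged over the 4 groups. Exon length here is that of all annotated exons of a gene merged, such as 4.59 kilobases for F2, 3.81 for Fgb and 2.09 for Fgg. The transcripts made may be shorter, so the order of the genes also depends on the annotation. C3, the component on which all activation pathways converge, stood highest at 932 CPM per kilobase. Vtn, which encodes vitronectin, an inhibitor of the terminal complex, followed at 754, and Mbl2, a lectin that recognises microbial sugars, at 335. Prothrombin (F2) was at 323, and the fibrinogen chains Fga, Fgb and Fgg lay close together at 283, 254 and 244. At the low end, F8 was at 0.196 and C6 at 0.174 CPM per kilobase, against 3.43 for Cfb, the next in order. The files' counting set reads on shared exons aside, and 79.5% of the exon length of Cfb, 54.9% of Masp2, 46.9% of C2, 34.4% of Serpinc1 and 18.4% of C1s1 is shared with other annotated genes. The levels of these 5 genes are therefore lower bounds. C4b, C1ra, C1s1 and Kng1 have near-identical copies in the mouse genome, between which the counting could divide or lose reads.

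**Figure D1:**
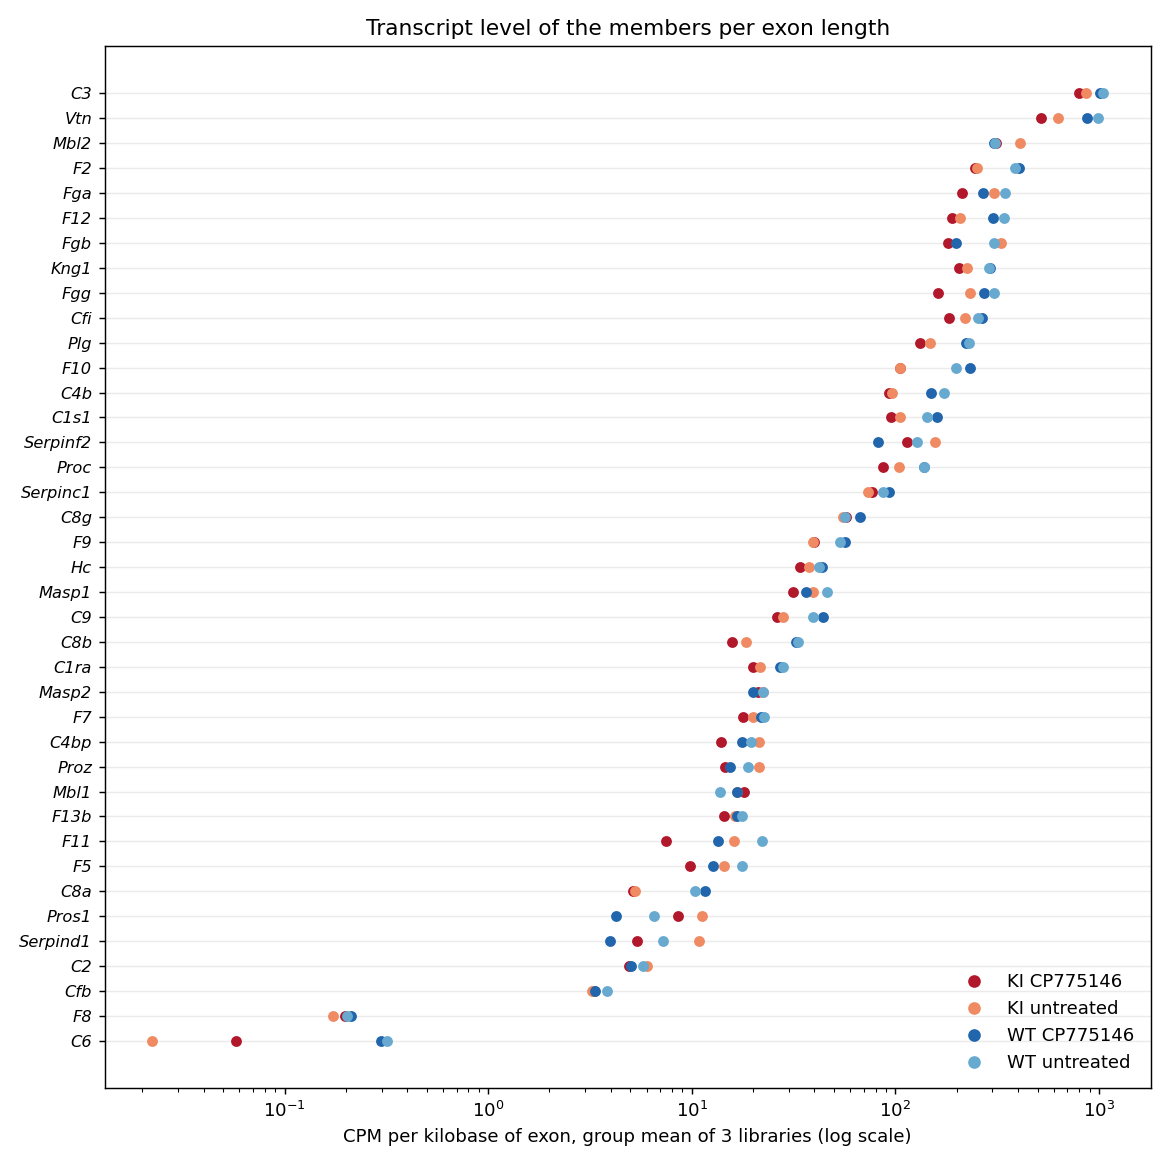
Level of each of the 39 genes in CPM per kilobase of exon on a log axis, with 1 point for the mean of the 3 libraries of each group. C3 lies farthest right in all 4 groups, F8 and C6 lie farthest left, and C6 is the gene whose WT and KI points lie farthest apart.

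The first comparison asked how the knock-in cells differ from wild type. With CP775146, 3 of the 39 genes were higher in KI and 29 were lower, where 20.5% of all tested genes were higher and 22% lower (42.5% in either direction). In untreated cells, 7 were higher and 26 lower, against 18.4% and 18.6% of all tested genes (37% in either direction). The median log2 fold change of the 39 was -0.37 with CP775146 and -0.26 without, while that of all tested genes was -0.013 and -0.004. Of the 29 genes called lower with CP775146, 25 (86.2%) were also lower without it, and these were 96.2% of the 26. The same overlap was not counted over all tested genes, so these shares have no background beside them. The genes called lower in both comparisons include C6, which passed the filter on low counts through the WT cells alone. Pros1, Serpind1 and Serpinf2 were called higher in both comparisons. The comparisons share no library, but both come from the same fit, and the labels leave unsaid whether they share animals or cultures. When libraries were scaled by total counts alone, the median gene stood at 0.124 log2 with CP775146 and 0.098 without. The split of the members then became 6 higher and 25 lower with CP775146 and 10 higher and 22 lower without, and their medians -0.23 and -0.16.

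**Figure D2:**
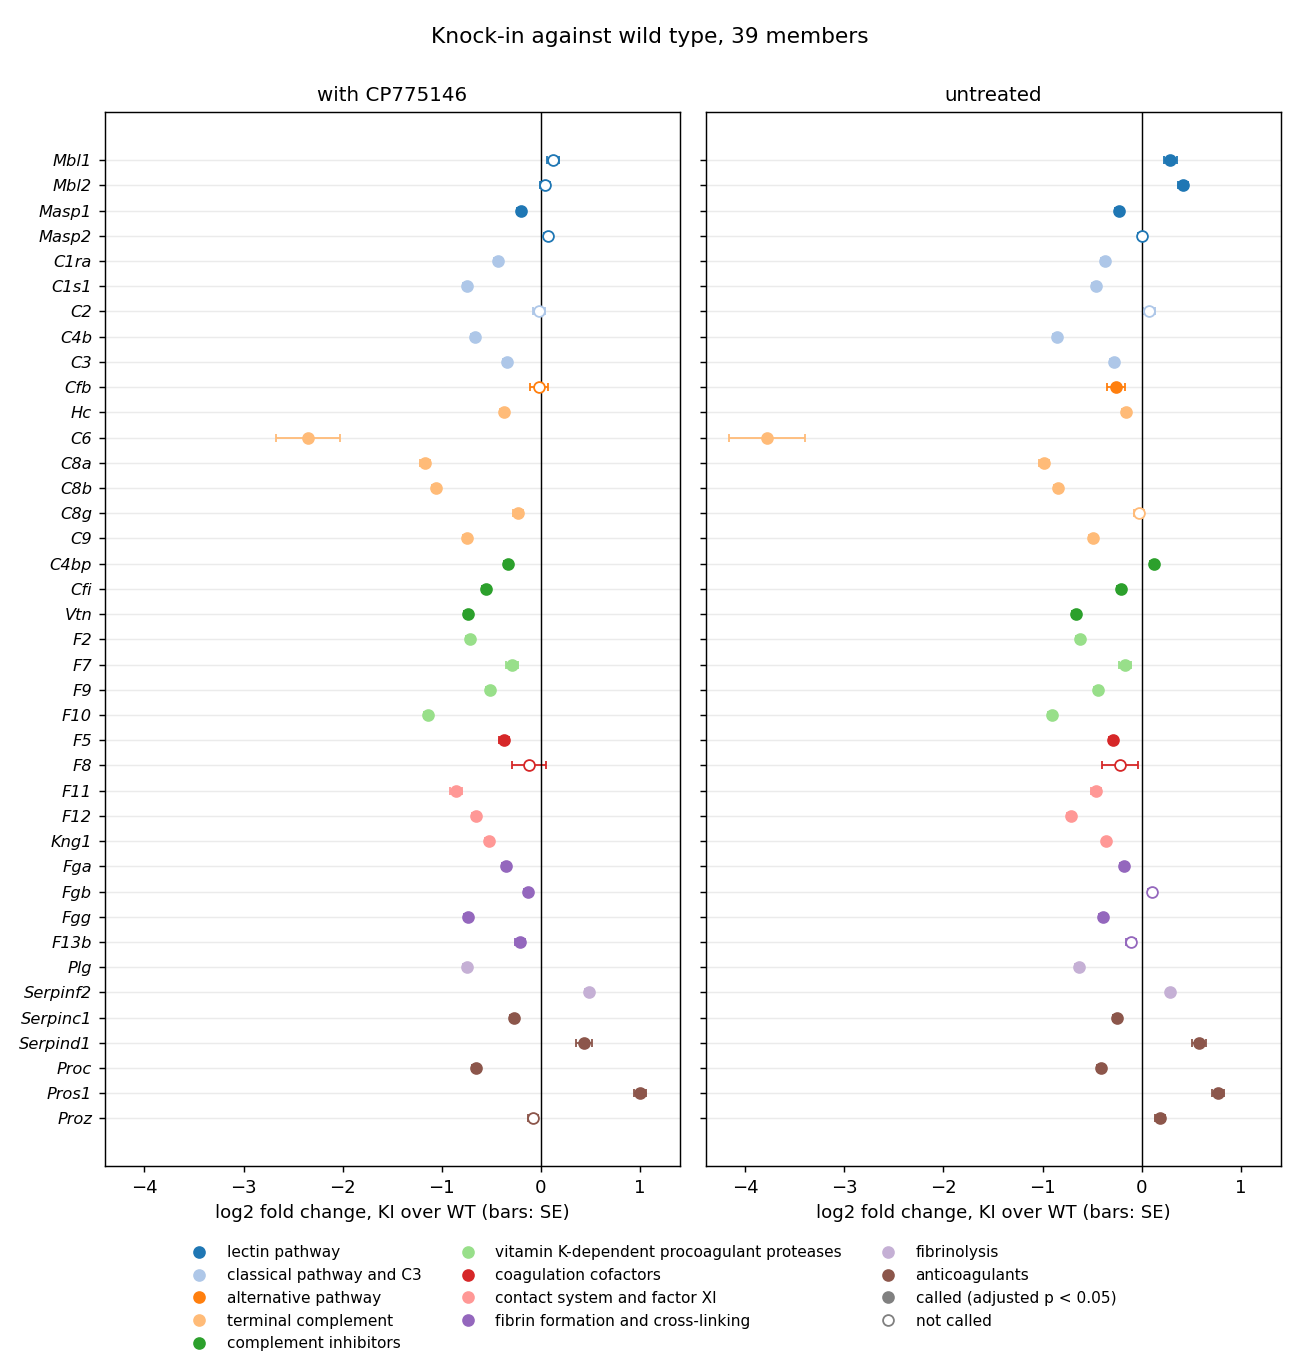
Log2 fold change of KI over WT with its standard error for each of the 39 genes, with CP775146 on the left and untreated on the right, coloured by role; filled points were called at an adjusted p below 0.05. Most points lie left of 0, C6 lies farthest left at -2.35 and -3.78, and Pros1 lies farthest right in both panels.

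Of the 4 lectin pathway genes, 1 was lower in KI cells with CP775146, and 2 were higher and 1 was lower without. Mbl2 was at 339, 342 and 355 CPM in KI cells with CP775146 and 459, 458 and 444 CPM in untreated KI cells, against 324, 335 and 347 CPM in WT cells with CP775146 and 332, 314 and 374 CPM in untreated WT cells. Without treatment the KI libraries were all above the WT libraries, by 0.42 ± 0.05 log2 (SE; edgeR adjusted p = 3.39e-08), whereas with CP775146 the libraries overlapped, at 0.04 ± 0.05. Mbl1, the other mannose-binding lectin, was also higher in untreated KI cells, by 0.29 log2, with a value of 0.12 under CP775146 that was not called. Masp1, a protease bound to these lectins, was lower in KI by 0.20 log2 with CP775146 and by 0.23 without, and the call with CP775146 was lost under scaling by total counts (-0.06 log2, edgeR adjusted p = 0.218). Masp2, the protease that cleaves C4 and C2, was not called, at 0.07 and -0.00 log2.

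Of the 5 genes of the classical pathway and C3, 4 were lower in KI cells under both conditions. C4b, which encodes the component split by C1s, was at 552, 529 and 518 CPM in KI cells with CP775146 and 554, 548 and 551 CPM in untreated KI cells, against 885, 835 and 825 CPM in WT cells with CP775146 and 1007, 1033 and 933 CPM in untreated WT cells. This was a difference of -0.67 ± 0.04 log2 with CP775146 and -0.85 ± 0.04 without (SE). C1s1, the protease of the C1 complex, was at 290, 308 and 295 CPM in KI cells with CP775146 and 330, 332 and 320 CPM in untreated KI cells, against 492, 513 and 496 CPM in WT cells with CP775146 and 447, 460 and 443 CPM in untreated WT cells. No KI library reached a WT library, and the fold changes were -0.75 log2 with CP775146 (edgeR adjusted p = 2.35e-16) and -0.46 without. C1ra, its partner protease, was lower by 0.43 and 0.37 log2.

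C3 was at 4212, 4048 and 4108 CPM in KI cells with CP775146 and 4397, 4355 and 4555 CPM in untreated KI cells, against 5326, 5253 and 5101 CPM in WT cells with CP775146 and 5572, 5366 and 5235 CPM in untreated WT cells. Its KI libraries lay below its WT libraries, and the level in KI was lower by 21.1% with CP775146 and 17.7% without. C2 was not called for genotype, at -0.02 and 0.07 log2. Cfb, the protease of the alternative pathway, was called lower in untreated KI cells by 0.26 log2, a call that was lost without KI untreated replicate 2 or 3 or WT untreated replicate 2 or 3 (edgeR adjusted p = 0.0526 to 0.175), and also under scaling by total counts (-0.16 log2, adjusted p = 0.172 in edgeR). DESeq2 did not call Cfb in untreated cells either. Cfb stood at -0.02 log2 with CP775146.

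The terminal components were lower in KI cells for 6 of 6 genes with CP775146 and 5 of 6 without, C6 among them. C6, which binds C5b at the start of the membrane attack complex, had 9, 7 and 7 counts in KI cells with CP775146 and 3 counts in each of the 3 untreated KI libraries, against 32, 47 and 25 counts in WT cells with CP775146 and 35, 27 and 44 counts in untreated WT cells. The ratio of its summed levels, KI over WT, was 0.192 with CP775146 (95% exact counting interval 0.117 to 0.304) and 0.0697 without (0.031 to 0.137). These intervals cover counting error only. C6 reached 10 counts in no KI library and in every WT library, so it passed the filter through the WT cells. It is included in the counts of genes called lower in KI, and its call is no support for them. It is described here because of its values, not by the rule for naming genes.

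C8 is built from an alpha, a beta and a gamma chain, and the genes of these chains did not move together. C8a was at 18.4, 18.8 and 18.7 CPM in KI cells with CP775146 and 19.1, 19.1 and 19.0 CPM in untreated KI cells, against 43.3, 42.7 and 40.0 CPM in WT cells with CP775146 and 39.3, 36.6 and 37.4 CPM in untreated WT cells. C8b, its neighbour on chromosome 4, was at 39.4, 41.6 and 38.5 CPM in KI cells with CP775146 and 46.3, 48.9 and 46.0 CPM in untreated KI cells, against 79.7, 83.0 and 86.1 CPM in WT cells with CP775146 and 84.8, 84.0 and 84.3 CPM in untreated WT cells. C8g, on chromosome 2, was at 84.0, 84.1 and 88.6 CPM in KI cells with CP775146 and 84.7, 83.7 and 78.9 CPM in untreated KI cells, against 99.3, 95.4 and 106 CPM in WT cells with CP775146 and 79.9, 87.9 and 84.9 CPM in untreated WT cells. The KI level was thus 0.444 and 0.48 times the WT level for C8a and C8b with CP775146, and 0.505 and 0.558 times without, while C8g was lower by 14.5% with CP775146 and overlapped between the genotypes without it. Their adjusted p with CP775146 in edgeR's quasi-likelihood test was 2.61e-17 for C8a, 1e-17 for C8b and 0.000141 for C8g.

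C9, which forms the wall of the pore, was at 66.1, 67.1 and 68.6 CPM in KI cells with CP775146 and 71.7, 72.8 and 71.2 CPM in untreated KI cells, against 108, 117 and 116 CPM in WT cells with CP775146 and 102, 97.7 and 103 CPM in untreated WT cells. Hc, the mouse gene of C5, was at 207, 215 and 217 CPM in KI cells with CP775146 and 238, 237 and 234 CPM in untreated KI cells, against 273, 280 and 270 CPM in WT cells with CP775146 and 270, 263 and 260 CPM in untreated WT cells. The difference for C9 was -0.75 log2 with CP775146 and -0.49 without, and that for Hc was -0.37 and -0.16. Under scaling by total counts the call of Hc without treatment (-0.06 log2, edgeR adjusted p = 0.201) and that of C8g with CP775146 (-0.09 log2, adjusted p = 0.097) were lost.

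Among the 3 complement inhibitors, Vtn was lower in KI by 0.74 log2 with CP775146 and by 0.66 without. Cfi, the protease that inactivates C3b and C4b, was at 402, 409 and 407 CPM in KI cells with CP775146 and 493, 496 and 476 CPM in untreated KI cells, against 576, 599 and 609 CPM in WT cells with CP775146 and 566, 547 and 581 CPM in untreated WT cells. It was lower in KI by 0.55 and 0.21 log2. C4bp, a cofactor of that protease, was at 95, 92.4 and 96.2 CPM in KI cells with CP775146 and 141, 145 and 143 CPM in untreated KI cells, against 116, 119 and 123 CPM in WT cells with CP775146 and 132, 131 and 132 CPM in untreated WT cells. It was the gene among the 39 called in opposite directions, lower in KI by 0.33 log2 with CP775146 and higher by 0.12 log2 without (edgeR adjusted p = 1.87e-08 and 0.0101).

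The 4 vitamin K-dependent procoagulant proteases were lower in KI cells under both conditions. F10, factor X, stood out among them, at 279, 298 and 287 CPM in KI cells with CP775146 and 289, 291 and 280 CPM in untreated KI cells, against 622, 606 and 670 CPM in WT cells with CP775146 and 531, 556 and 534 CPM in untreated WT cells. Its level in KI was 0.455 times the WT level with CP775146 and 0.531 times without, the smallest adjusted p of the 39 genes in both comparisons (edgeR, 1.53e-19 and 2.75e-17). Prothrombin (F2) was at 1127, 1136 and 1138 CPM in KI cells with CP775146 and 1161, 1166 and 1149 CPM in untreated KI cells, against 1842, 1814 and 1942 CPM in WT cells with CP775146 and 1767, 1859 and 1731 CPM in untreated WT cells. It was lower by 39.2% with CP775146 and by 35.1% without, and F9, factor IX, was lower by 30% and 26.3%.

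F7, factor VII, which starts coagulation with tissue factor, was at 32.2, 32.7 and 34.5 CPM in KI cells with CP775146 and 38.5, 38.0 and 35.7 CPM in untreated KI cells, against 41.2, 37.7 and 42.4 CPM in WT cells with CP775146 and 40.8, 45.4 and 39.7 CPM in untreated WT cells. The KI libraries lay below the WT libraries by 0.29 log2 with CP775146 and 0.17 log2 without. The call without treatment was lost when KI untreated replicate 3 or WT untreated replicate 2 was left out (edgeR adjusted p = 0.121 to 0.174), and under scaling by total counts (-0.06 log2, adjusted p = 0.364).

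The cofactors differed in level and in what could be seen. F5, factor V, was at 71.6, 75.7 and 72.2 CPM in KI cells with CP775146 and 105, 106 and 110 CPM in untreated KI cells. In WT cells it was at 94.2, 101 and 88.8 CPM with CP775146 and 137, 128 and 128 CPM untreated. F5 was lower in KI by 0.37 log2 with CP775146 and by 0.29 without. F8, factor VIII, which liver endothelial cells rather than hepatocytes are known to make, was at 1.68, 2.12 and 2.05 CPM in KI cells with CP775146 and 1.83, 1.5 and 1.82 CPM in untreated KI cells, against 2.04, 2.62 and 1.67 CPM in WT cells with CP775146 and 2.12, 1.99 and 1.9 CPM in untreated WT cells. With 45 to 77 counts per library, no F8 difference was detectable in any comparison, and its largest standard error for a genotype or agonist effect was 0.18 log2. Beside it, the summed level of 11 endothelial markers was 54.9 to 60.6 CPM in KI cells with CP775146, 75.5 to 83.4 CPM in untreated KI cells, 114 to 122 CPM in WT cells with CP775146 and 157 to 175 CPM in untreated WT cells. Of these markers 9 were tested, and 1 was higher and 3 were lower in KI in each genotype comparison. In the same order of groups Stab2 averaged 24.4, 33.6, 52.8 and 65.1 CPM, Flt1 5.63, 13.9, 39.6 and 72.7 CPM, and Stab1 14.1, 15.8, 12.1 and 13.8 CPM, while Clec4g and Vwf stayed under 0.08 CPM in every group mean. The part of endothelial RNA in the F8 values was not tested.

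In the contact system, F12, the protease that starts the intrinsic pathway, was lower in KI by 0.66 log2 with CP775146 and by 0.71 without, and Kng1, which encodes kininogen, by 0.52 and 0.36. F11, the protease that activates factor IX, was at 15.3, 17.7 and 17.1 CPM in KI cells with CP775146 and 38.5, 36.4 and 33.6 CPM in untreated KI cells, against 30.4, 30.7 and 29.7 CPM in WT cells with CP775146 and 49.3, 48.6 and 51.5 CPM in untreated WT cells. The KI libraries were below the WT libraries in both comparisons, by 0.86 and 0.46 log2.

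Fibrinogen is a hexamer of 3 chains whose genes Fgg, Fga and Fgb lie side by side on chromosome 3. Fga was at 637, 656 and 632 CPM in KI cells with CP775146 and 907, 958 and 877 CPM in untreated KI cells, against 823, 814 and 812 CPM in WT cells with CP775146 and 1047, 1011 and 1054 CPM in untreated WT cells. Fgb was at 697, 698 and 673 CPM in KI cells with CP775146 and 1231, 1336 and 1192 CPM in untreated KI cells, against 790, 741 and 735 CPM in WT cells with CP775146 and 1210, 1150 and 1148 CPM in untreated WT cells. Fgg was at 334, 355 and 333 CPM in KI cells with CP775146 and 484, 513 and 470 CPM in untreated KI cells, against 558, 567 and 582 CPM in WT cells with CP775146 and 658, 636 and 628 CPM in untreated WT cells. Each chain stood lowest in KI cells with CP775146, and the difference between KI and WT cells was not the same for each chain. Fgg was lower in KI by 0.74 log2 with CP775146 and 0.39 without, and Fga by 0.35 and 0.18. Fgb was lower by 0.13 with CP775146 and not called without, at 0.10. The Fgb call with CP775146 was lost without KI CP775146 replicate 3 or WT CP775146 replicate 1 (edgeR adjusted p = 0.0625 to 0.114), and under scaling by total counts Fgb was at 0.00 log2 and the call of Fga without treatment was lost (-0.08 log2, adjusted p = 0.0778).

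The sum of the 3 chains was 1672 ± 35.6 CPM in KI cells with CP775146, 2656 ± 137 CPM in untreated KI cells, 2141 ± 26.6 CPM in WT cells with CP775146 and 2847 ± 60.5 CPM in untreated WT cells (SD, n = 3 each). Taken per kilobase of exon, Fgb made up 32.5 ± 0.468% of the fibrinogen signal in KI cells with CP775146, 38 ± 0.344% in untreated KI cells, 26.7 ± 0.906% in WT cells with CP775146 and 32 ± 0.364% in untreated WT cells. Fgg made up 29.2 ± 0.479%, 27 ± 0.15%, 36.7 ± 0.961% and 32 ± 0.391% in the same order, so that the share of Fgg was lower in KI than in WT libraries under both conditions. The size of each share depends on the annotated exon lengths. F13b, the carrier subunit of the factor that cross-links fibrin, was lower in KI by 0.21 log2 with CP775146 and was not called without, at -0.11. Its call with CP775146 was lost under scaling by total counts (-0.08 log2, edgeR adjusted p = 0.203).

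Plg, plasminogen, was at 363, 370 and 367 CPM in KI cells with CP775146 and 401, 415 and 407 CPM in untreated KI cells, against 602, 609 and 636 CPM in WT cells with CP775146 and 642, 650 and 601 CPM in untreated WT cells. Serpinf2, alpha-2-antiplasmin, the main inhibitor of plasmin, was at 273, 264 and 259 CPM in KI cells with CP775146 and 361, 365 and 362 CPM in untreated KI cells, against 200, 184 and 189 CPM in WT cells with CP775146 and 296, 310 and 288 CPM in untreated WT cells. The zymogen and its inhibitor thus differed in opposite directions: Plg was at 0.595 times the WT level with CP775146 and 0.647 times without, and Serpinf2 at 1.39 and 1.22 times.

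The 5 anticoagulants also divided. Pros1, protein S, the cofactor of activated protein C, was at 34.5, 33.7 and 36.6 CPM in KI cells with CP775146 and 45.7, 44.6 and 47.1 CPM in untreated KI cells, against 19.0, 17.7 and 15.7 CPM in WT cells with CP775146 and 27.8, 25.3 and 27.3 CPM in untreated WT cells. Serpind1, heparin cofactor II, an inhibitor of thrombin, was at 12.9, 10.8 and 11.7 CPM in KI cells with CP775146 and 23.7, 24.4 and 23.0 CPM in untreated KI cells, against 9.33, 8.48 and 8.29 CPM in WT cells with CP775146 and 17.6, 14.2 and 15.8 CPM in untreated WT cells. The KI level of Pros1 was 2 times the WT level with CP775146 and 1.71 times without, and that of Serpind1 was 1.35 and 1.49 times, in libraries that did not overlap between the genotypes (edgeR adjusted p = 4.47e-14 and 3.38e-12 for Pros1, 0.000108 and 1.47e-07 for Serpind1). Proz, the cofactor of the protein Z-dependent inhibitor of factor Xa, was higher by 0.18 log2 in untreated KI cells and not called with CP775146, at -0.08.

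Proc, protein C, was at 135, 136 and 139 CPM in KI cells with CP775146 and 169, 162 and 158 CPM in untreated KI cells, against 216, 208 and 223 CPM in WT cells with CP775146 and 210, 223 and 219 CPM in untreated WT cells. Serpinc1, antithrombin, was at 660, 641 and 672 CPM in KI cells with CP775146 and 612, 616 and 645 CPM in untreated KI cells, against 761, 783 and 838 CPM in WT cells with CP775146 and 725, 764 and 743 CPM in untreated WT cells. Both stood lower in KI, Proc by 0.66 and 0.41 log2 and Serpinc1 by 0.27 and 0.25 log2 with and without CP775146.

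**Figure D3:**
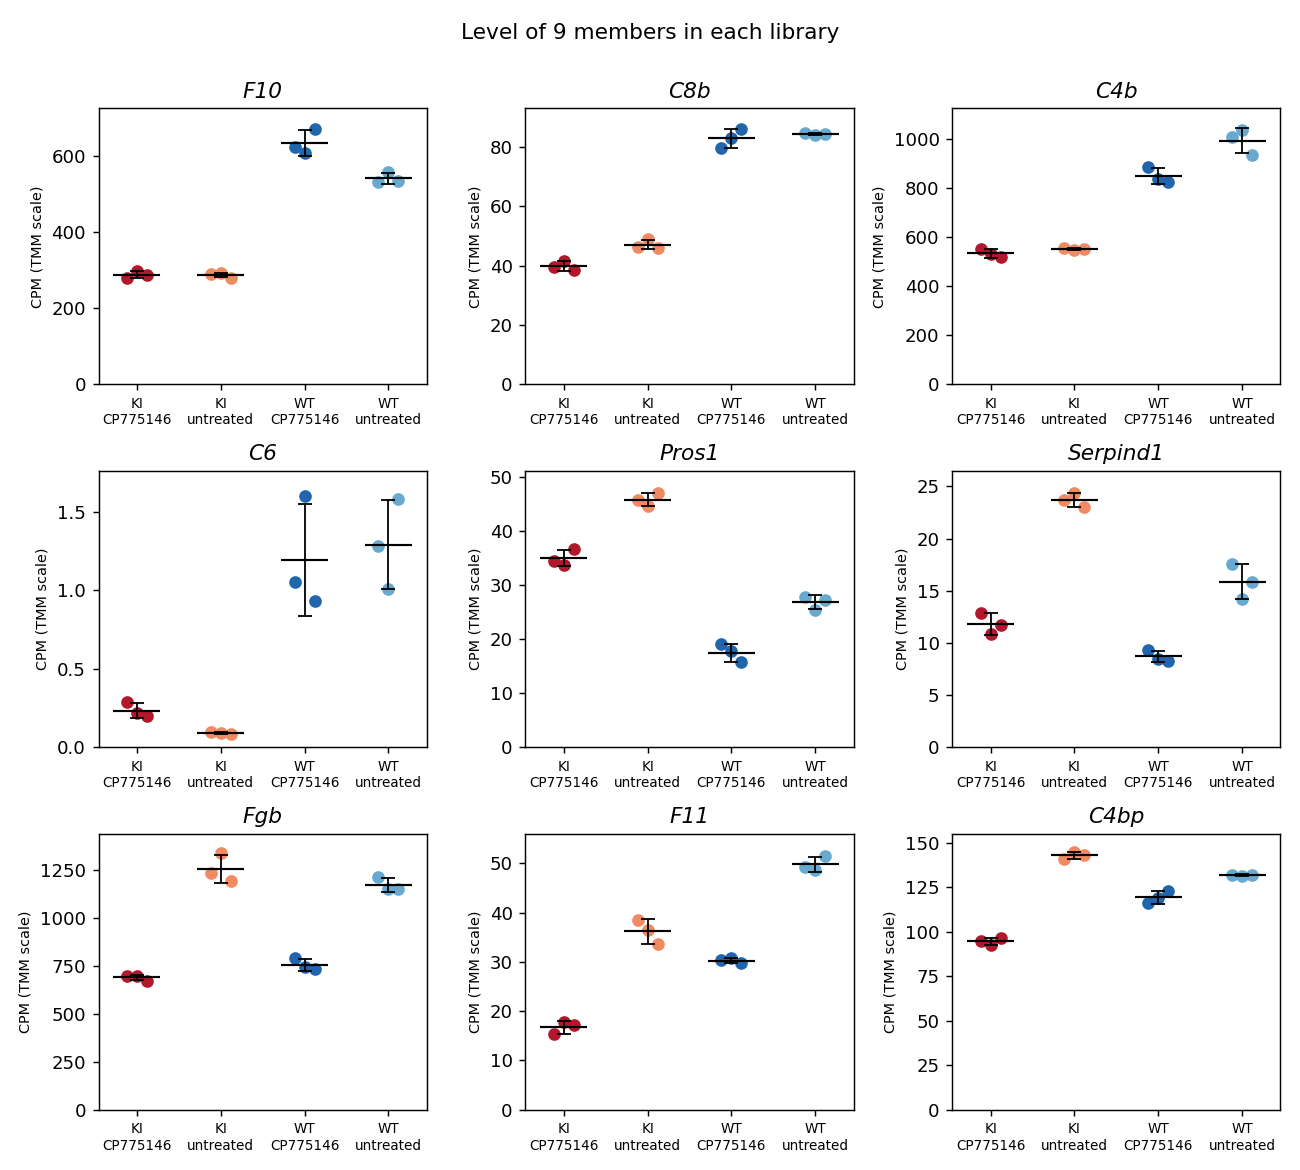
CPM of 9 of the genes in each library, with groups in the order KI with CP775146, untreated KI, WT with CP775146 and untreated WT; lines are means and bars are SD over 3 libraries. F10, C8b, C4b and C6 are lower in KI, Pros1 and Serpind1 are higher in KI, and Fgb, F11, Serpind1 and C4bp are lower with CP775146 in both genotypes.

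The second comparison asked how cells given the agonist for 24 h differed from untreated cells of the same genotype. With no vehicle named for the untreated cells, lowered and raised here describe differences from untreated cells only. In KI cells, CP775146 lowered 26 of the 39 genes and raised 0, where 19.1% of all tested genes fell and 18.1% rose (37.2% in either direction). For the count of 0 by edgeR's quasi-likelihood test, 1 gene was higher at an unadjusted p below 0.05 (C6, at 1.32 log2 on 7 to 9 against 3 counts per library), DESeq2 called 0 and limma voom called 2. In WT cells 16 genes fell and 7 rose, where 22.3% of all tested genes fell and 22.7% rose (45% in either direction). The median log2 fold change was -0.16 in KI cells and -0.05 in WT cells, and that of all tested genes was -0.010 and -0.005. Under scaling by total counts the WT split became 3 higher and 26 lower, with the median of all genes at -0.104. Of the 26 genes lowered in KI cells, 14 (53.8%) were also lowered in WT cells, and these were 87.5% of the 16 lowered there. This overlap too was not counted over all tested genes.

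**Figure D4:**
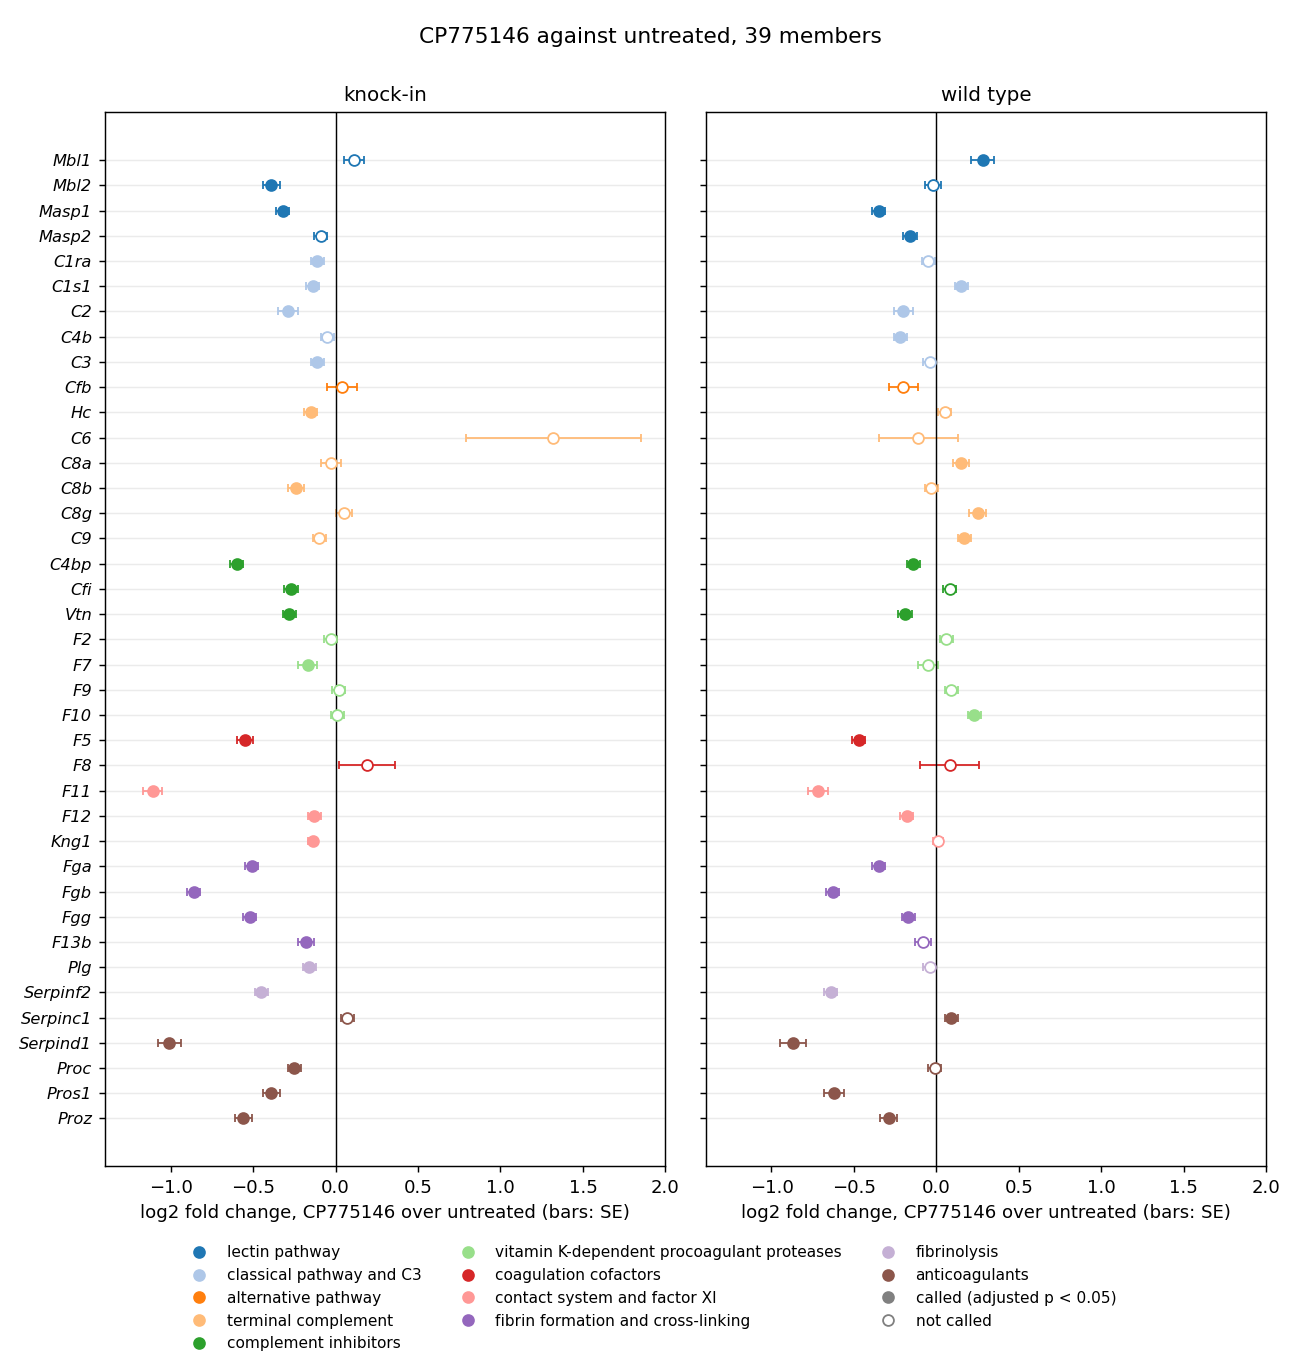
Log2 fold change of CP775146 over untreated with its standard error for each of the 39 genes, KI on the left and WT on the right, coloured by role; filled points were called at an adjusted p below 0.05. F11, Serpind1 and Fgb lie farthest left in KI, at -1.11, -1.01 and -0.86, and the C6 point in KI carries the widest bar.

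Of the 20 coagulation genes tested, CP775146 lowered 15 in KI cells, and in WT cells it lowered 10 and raised 2. F11 fell by 1.11 ± 0.06 log2 in KI cells and 0.72 ± 0.06 in WT cells, and Serpind1 by 1.01 ± 0.07 and 0.87 ± 0.08 (SE). Fgb fell by 0.86 and 0.63 log2, Fga by 0.51 and 0.35, and Fgg by 0.52 and 0.17, so that all 3 fibrinogen chains were lowered in both genotypes and Fgb was lowered most in each. Serpinf2 fell by 0.45 and 0.64 log2, Pros1 by 0.39 and 0.62, F5 by 0.55 and 0.47, and Proz by 0.56 and 0.29. The adjusted p of Fgb in edgeR's quasi-likelihood test was 9.4e-17 in KI cells and 1.31e-13 in WT cells.

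Of the 19 complement genes, CP775146 lowered 11 in KI cells, and in WT cells it lowered 6 and raised 5. C4bp fell by 0.60 log2 in KI cells and 0.14 in WT cells, Masp1 by 0.32 and 0.35, C2 by 0.29 and 0.20, and Vtn by 0.28 and 0.19. Of the 6 terminal components 2 fell in KI cells, C8b by 0.24 and Hc by 0.15 log2, and 3 rose in WT cells, where C8g was up by 0.25, C9 by 0.17 and C8a by 0.15 log2. C4b fell by 0.22 log2 and Masp2 by 0.16 in WT cells and were not called in KI cells, at -0.05 and -0.09, while Cfi fell by 0.27 in KI cells and stood at 0.08 in WT cells without a call. The interaction of genotype and CP775146, tested below, was called for Cfi and not for C4b or Masp2. The C8a rise was lost without WT CP775146 replicate 1 (edgeR adjusted p = 0.0737). Under scaling by total counts the rises of C8a (0.05 log2, adjusted p = 0.386) and C9 (0.07 log2, adjusted p = 0.156) were lost, and that of C8g kept its call (0.15 log2, adjusted p = 0.00635 in edgeR). C3 fell by 0.11 log2 in KI cells, a call lost without KI untreated replicate 3 or KI CP775146 replicate 2 or 3 (edgeR adjusted p = 0.0678 to 0.101), and stood at -0.04 in WT cells without a call. The fall of C1ra in KI cells, by 0.11 log2, was lost in 7 of 12 fits that left out 1 library, those without KI untreated replicate 1 or 3, KI CP775146 replicate 1, 2 or 3, or WT CP775146 replicate 1 or 3 (edgeR adjusted p = 0.05 to 0.28). The C1ra call was also lost in DESeq2 and with no filter on low counts.

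Of the 4 procoagulant proteases, 1 fell with CP775146 in KI cells and 1 rose in WT cells. In KI cells F7 fell by 0.17 log2, and F2, F9 and F10 were not called, at -0.03, 0.02 and 0.01. In WT cells F10 rose by 0.23 log2, and F2, F7 and F9 were not called, at 0.06, -0.05 and 0.09. The F7 call in KI cells was lost without KI untreated replicate 1 or KI CP775146 replicate 1 (edgeR adjusted p = 0.0602 to 0.0651), and that of F12 in KI cells, a fall by 0.13 log2, without KI untreated replicate 1 or KI CP775146 replicate 2 (edgeR adjusted p = 0.0581 to 0.0903). Serpinc1 was called higher in WT cells by 0.09 log2 at an edgeR adjusted p of 0.0485, although its libraries overlapped, and that call was lost in 7 of 12 fits without 1 library (adjusted p up to 0.335): those without KI untreated replicate 1 or 2, KI CP775146 replicate 3, WT untreated replicate 1 or 3, or WT CP775146 replicate 2 or 3. The Serpinc1 call was also lost under RLE scaling, under scaling by total counts, in DESeq2 and in a fit of the compared groups alone. Kng1, Plg and F13b fell in KI cells by 0.14, 0.16 and 0.18 log2 and were not called in WT cells, at 0.01, -0.04 and -0.08. Mbl1 rose in WT cells by 0.28 log2 and was not called in KI cells, at 0.11. The interaction of genotype and CP775146, tested below, was not called for Kng1, Plg, F13b or Mbl1.

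The third comparison tested whether the agonist effect itself differed between the genotypes, as the interaction of genotype and CP775146. It was called for 14 of the 39 genes, 13 with a more negative agonist effect in KI cells and 1 with a less negative one, where 4.33% and 2.78% of all tested genes were called in those directions (7.11% in either). Among the 14, 6 fell in both genotypes, 5 fell in KI cells and were not called in WT cells, 2 rose in WT cells and were not called in KI cells, and C1s1 fell in KI cells and rose in WT cells. Each of C1ra, C3, F7, Kng1, F13b, Plg, C4b, Masp2, Mbl1, C8a, C8g and Serpinc1 was called for CP775146 in a single genotype. The interaction was not called for these genes. C4bp had the widest difference of the called genes, -0.45 ± 0.05 log2 (SE; edgeR adjusted p = 7.86e-07), from a level of 0.661 times the untreated one in KI cells against 0.905 times in WT cells. F11 differed by -0.39, Mbl2 by -0.37, Fgg by -0.35 and Cfi by -0.34 log2.

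**Figure D5:**
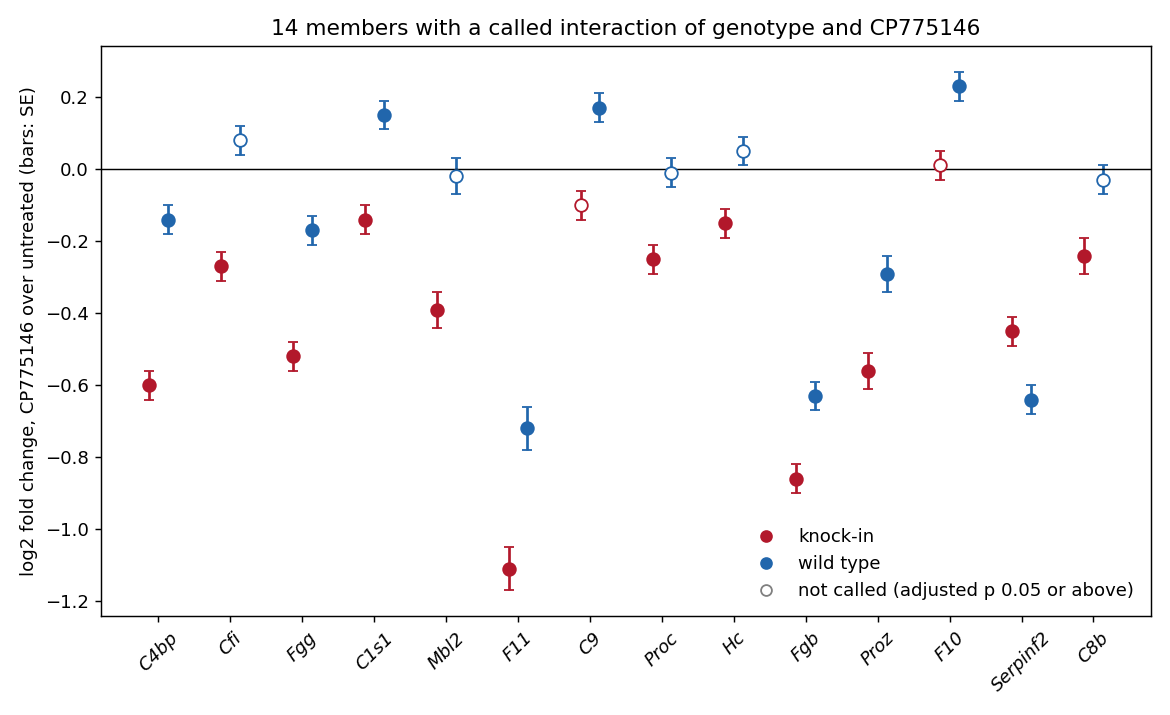
Log2 fold change of CP775146 over untreated with its standard error in KI cells (red) and WT cells (blue) for the 14 genes with a called interaction. The KI point lies below the WT point for 13 genes and above it for Serpinf2, and C1s1 is the gene with called effects on opposite sides of 0.

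Mbl2 fell by 0.39 log2 in KI cells and stood at -0.02 in WT cells, and its genotype difference was called without treatment and not with CP775146. C1s1 fell by 0.14 log2 in KI cells and rose by 0.15 in WT cells, an interaction of -0.29 log2 (edgeR adjusted p = 0.000327). Its rise in WT cells was lost under scaling by total counts, with an edgeR adjusted p of 0.216. Proc, Hc and C8b had interactions of -0.24, -0.21 and -0.22 log2, C9 and F10 of -0.26 and -0.22, and Proz and Fgb of -0.27 and -0.23. Serpinf2 was the gene with a positive interaction, 0.19 log2 from a fall by 0.45 in KI cells against 0.64 in WT cells. Of the 14 calls, 5 were lost when 1 library was left out. Serpinf2 lost its call in 7 of 12 such fits (edgeR adjusted p = 0.0576 to 0.124), those without KI untreated replicate 1, 2 or 3, KI CP775146 replicate 1 or 2, or WT untreated replicate 1 or 2. C8b lost it in 5 (0.0505 to 0.11), without KI untreated replicate 1 or 2, KI CP775146 replicate 1 or 3, or WT CP775146 replicate 3. The C8b call was also lost under scaling by total counts. Fgb lost its call without KI untreated replicate 2 or WT CP775146 replicate 1 (0.052 to 0.0593), F10 without WT CP775146 replicate 3 (0.0639), and Proz without WT CP775146 replicate 1 (0.0575).

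Because the fibrinogen genes fell together with the agonist, the 250 bases before the RefSeq start of each are shown here for the motifs they hold, in GRCm38.p6. Capitals mark the core of the HNF1 motif (GTTAAT on either strand), the C/EBP motif TTGCNNAA on either strand and the interleukin-6 response element CTGGGAA on either strand. The windows are chr3:83007474-83007723 on the plus strand for Fgg, chr3:83025903-83026152 on the plus strand for Fga, and chr3:83049864-83050113 on the minus strand for Fgb; that of Fga ends inside the gene as the files annotate it, which starts at 83026076.
Fgg: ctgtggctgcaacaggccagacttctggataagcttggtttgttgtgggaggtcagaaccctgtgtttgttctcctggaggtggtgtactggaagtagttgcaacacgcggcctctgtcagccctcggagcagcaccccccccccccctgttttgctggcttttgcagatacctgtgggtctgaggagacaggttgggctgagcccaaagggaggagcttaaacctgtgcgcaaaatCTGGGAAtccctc
Fga: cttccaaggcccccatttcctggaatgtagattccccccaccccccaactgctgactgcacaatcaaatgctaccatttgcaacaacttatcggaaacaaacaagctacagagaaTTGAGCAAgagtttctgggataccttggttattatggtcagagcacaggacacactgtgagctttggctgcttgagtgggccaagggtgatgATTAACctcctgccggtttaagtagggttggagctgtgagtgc
Fgb: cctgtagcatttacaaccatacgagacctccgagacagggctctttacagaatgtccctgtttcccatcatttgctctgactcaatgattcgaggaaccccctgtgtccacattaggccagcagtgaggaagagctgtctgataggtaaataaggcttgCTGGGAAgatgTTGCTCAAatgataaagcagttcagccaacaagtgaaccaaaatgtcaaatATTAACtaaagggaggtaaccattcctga

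The Fgb window held all 3 motifs, with the HNF1 core 29, the C/EBP motif 80 and the interleukin-6 element 91 bases before the start. The Fga window held the HNF1 core at 43 and the C/EBP motif at 135 bases, and the Fgg window held the interleukin-6 element at 13 bases. RefSeq gave such a window for 31 of the 39 genes. The HNF1 core was in 10 of the 31, against 6.43% of all 32851 windows, the C/EBP motif in 7 (9.56% of all windows) and the interleukin-6 element in 5 (9.1% of all windows). The DR1 element, AGGTCA repeated after 1 spacer base, to which PPAR-alpha binds with its partner RXR, was in 0 of the 31 and in 0.0335% of all windows. The TATAAA letters of a TATA box were in 2 of the 31 and in 12.4% of all windows, and CAAAGTCCA of HNF4 was in 0 and 0.384%. A match is a description of the letters only.

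F7, F10 and Proz stand in a row on chromosome 8, from 13026034 to 13075006 in GRCm38, and encode vitamin K-dependent proteins. Their differences between KI and WT cells were unlike. In untreated cells F7 was lower in KI by 0.17 log2, F10 was lower by 0.91, and Proz was higher by 0.18. With CP775146 against untreated, F7 was at -0.17 and -0.05 log2 in KI and WT cells, F10 at 0.01 and 0.23, and Proz at -0.56 and -0.29. Their windows, chr8:13025784-13026033 for F7, chr8:13037058-13037307 for F10 and chr8:13060658-13060907 for Proz, all on the plus strand of GRCm38.p6, are shown to set these neighbours side by side, with the same capitals.
F7: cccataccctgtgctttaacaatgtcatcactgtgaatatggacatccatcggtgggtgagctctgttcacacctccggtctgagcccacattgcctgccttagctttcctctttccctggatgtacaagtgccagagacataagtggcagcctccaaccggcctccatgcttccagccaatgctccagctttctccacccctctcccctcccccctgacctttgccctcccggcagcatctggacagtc
F10: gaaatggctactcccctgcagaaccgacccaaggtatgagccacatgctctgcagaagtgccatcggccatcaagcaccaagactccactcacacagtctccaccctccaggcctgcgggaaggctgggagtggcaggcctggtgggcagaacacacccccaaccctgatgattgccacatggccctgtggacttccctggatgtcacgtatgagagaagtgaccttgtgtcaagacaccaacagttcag
Proz: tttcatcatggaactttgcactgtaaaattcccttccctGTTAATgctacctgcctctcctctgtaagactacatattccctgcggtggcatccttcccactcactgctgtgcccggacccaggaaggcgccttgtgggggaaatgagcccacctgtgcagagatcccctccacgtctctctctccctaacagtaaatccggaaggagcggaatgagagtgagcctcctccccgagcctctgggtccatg

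Of the 3 motifs in capitals, the Proz window held the HNF1 core at 211 bases before the start, and the windows of F7 and F10 held none of them. On chromosome 4, C8b and C8a lie next to each other and were lower in KI by similar amounts, 1.06 and 1.17 log2 with CP775146. C1ra and C1s1 are neighbours on chromosome 6 and were lower in KI by 0.43 and 0.75 log2 with CP775146, and C4b, C2 and Cfb lie within chromosome 17 between 34728380 and 34898265, where C4b was at -0.67 and C2 and Cfb at -0.02 log2.

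Other genes of both systems were counted from lists that hold regulators, receptors and inhibitors outside the 39. The counts of all these lists stand beside shares called among all tested genes of 42.5% for KI against WT with CP775146, 37% for KI against WT without, 37.2% for CP775146 in KI cells and 45% for CP775146 in WT cells, in either direction. Of 34 further complement genes 27 were tested, and 4 were higher and 10 lower in KI with CP775146, and 2 higher and 8 lower without. Serping1, the C1 inhibitor, had log2 fold changes of -0.60 and -0.59 in KI over WT with and without CP775146. Of these 27 genes CP775146 raised 3 and lowered 8 in KI cells and raised 5 and lowered 9 in WT cells, with Cpn2, a carboxypeptidase N subunit, down by 0.56 and 0.84 log2. The median of the 27 for KI against WT was -0.01 with CP775146 and -0.08 without, nearer to 0 than that of the 39.

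Of 36 further coagulation and fibrinolysis genes 29 were tested, and 14 were higher and 12 lower in KI with CP775146, and 12 higher and 11 lower without. Plat, tissue plasminogen activator, averaged 44.8 CPM in KI cells with CP775146 and 9.62 CPM in untreated KI cells, against 8.94 CPM in WT cells with CP775146 and 2.05 CPM in untreated WT cells. Its log2 fold change for KI over WT was 2.32 with CP775146 and 2.23 without, and for CP775146 over untreated 2.22 in KI and 2.12 in WT cells. Plaur, the urokinase receptor, was higher in KI by 1.39 and 1.49 log2, and Pzp, a plasma protease inhibitor of the alpha-macroglobulin family, was lower by 1.22 and 1.16. CP775146 raised 8 and lowered 8 of the 29 in KI cells and raised 9 and lowered 9 in WT cells, with Habp2, a plasma protease that can activate factor VII, at -0.62 and -0.58 log2.

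Of 7 genes of the vitamin K cycle, which carboxylates the vitamin K-dependent factors, 3 were higher and 1 lower in KI with CP775146, and likewise 3 and 1 without. Ggcx, the carboxylase itself, was higher in KI by 0.25 log2 without treatment and stood at -0.00 with CP775146. CP775146 raised 3 and lowered 1 of these genes in KI cells and raised 4 in WT cells. Of 15 liver transcription factor genes, 4 were higher and 3 lower in KI with CP775146, and 5 higher and 4 lower without, with Foxa2 higher by 0.46 and 0.29 log2 and Ppara lower by 0.44 and 0.26. CP775146 raised 3 and lowered 5 of them in KI cells and raised 4 and lowered 9 in WT cells. Of 12 genes of interleukin-6 and interleukin-1 signalling, 5 were higher and 3 lower in KI with CP775146, and 6 higher and 3 lower without, and CP775146 raised 2 and lowered 5 in KI cells and raised 2 and lowered 4 in WT cells. Il6ra, the interleukin-6 receptor, fell with CP775146 by 0.72 log2 in KI and 0.57 in WT cells, and Il6st, its signalling partner, rose by 0.30 and 0.57.

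Markers of cell types were followed beside these results. Of 8 hepatocyte markers 2 were higher and 4 lower in KI with CP775146, and 1 higher and 4 lower without, and their summed level was 79479 to 81861 CPM in KI cells with CP775146, 85877 to 90428 CPM in untreated KI cells, 121041 to 127220 CPM in WT cells with CP775146 and 118983 to 121441 CPM in untreated WT cells. The summed level of 10 macrophage markers was 111 to 125, 158 to 168, 188 to 193 and 217 to 257 CPM in the same order, that of 7 stellate cell markers 66.9 to 77.5, 108 to 121, 159 to 197 and 187 to 219 CPM, and that of 5 cholangiocyte markers 48.3 to 52.5, 40.8 to 43.4, 32.8 to 33.7 and 15.1 to 18 CPM. In KI against WT, of 9 tested macrophage markers 3 were higher and 1 lower with CP775146 and 2 higher and 1 lower without, and of 6 tested stellate cell markers 3 were lower under each condition. Alb made up most of the hepatocyte sum, with means of 65623, 70529, 107664 and 102106 CPM in the same order. Among the other hepatocyte markers, Apoa1 and Trf were lower in KI under both conditions, Apob was higher under both, and Hnf4a was not called. Cd68 made up most of the macrophage sum, with means of 110, 151, 185 and 234 CPM in the same order, and no other macrophage marker averaged above 2.32 CPM. Of those others C1qa was higher in KI, by 0.76 log2 with CP775146 and 0.59 without. Reln made up most of the stellate cell sum, with means of 67.1, 109, 168 and 200 CPM. Of the 5 cholangiocyte markers 3 were higher with CP775146 and 4 without. In KI cells CP775146 lowered 6 of the 8 hepatocyte markers, 5 of the 9 macrophage markers, 2 of the 9 endothelial markers and 2 of the 6 stellate cell markers, and it raised 2 and lowered 1 of the 5 cholangiocyte markers. In WT cells it raised 2 and lowered 4 of the hepatocyte markers, lowered 4 macrophage and 4 endothelial markers, and raised 3 and lowered 1 of the cholangiocyte markers. The 6 platelet markers summed to at most 5.19 CPM and the 5 leukocyte markers to at most 0.238 CPM in any library. The libraries carried hepatocyte RNA by these markers, and the part of the other cell types in the differences described was not tested.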

How the data were processed

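RNA-seq was made from 12 libraries of primary mouse hepatocytes, 3 in each of 4 groups. The authors deposited raw read counts per gene, 1 table per library. Per the file headers the counting tool was featureCounts 1.6.2, run on exons grouped by gene with Ensembl annotation release 83 (GRCm38), without strand or multi-mapping options; the submitters' processing notes name version 1.4.6-p4, FastQC 0.11.2, cutadapt 1.9 and edgeR 3.18.1. The prefix of the agonist's dose is a symbol-font character, read here as micro.

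Of 46983 gene IDs 46488 were matched to a symbol. Low genes were removed by filterByExpr (at least 10 counts, total of 15), and the rest scaled by TMM and fitted in edgeR 4.0.16 (R 4.3.3; glmQLFit, robust, 1 term per group over all 12 libraries). 5 contrasts were tested with glmQLFTest, Benjamini-Hochberg adjusted over 15664 genes. The pipeline was tested on simulated data. Alternatives were RLE scaling, total counts, no filter, at least 5 CPM in 3 libraries, DESeq2 1.42.0, limma 3.58.1 voom with sample weights, the compared groups alone, a replicate block, a minimum change of 1.25-fold, and leaving out each library. The members and gene lists were chosen with earlier results of these data known. Genes given with every library value were, per contrast and direction, the 4 members called with the smallest adjusted p, up to 8 members of the interaction, and C3, Hc, Fga, Fgb, Fgg, F2, F7, F8, Plg, Serpinc1 and Proc; C6 and Proz were described after their values were seen. Transferrin was listed under its mouse symbol Trf. Promoter windows came from RefSeq (GRCm38.p6).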

Additional observations from a re-analysis of the deposited data

Results flagged for a closer look

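For 14 genes the effect of CP775146 differed between the genotypes by the test of the interaction (KI minus WT, log2). The values were -0.45 for C4bp, -0.39 for F11, -0.37 for Mbl2, -0.35 for Fgg, -0.34 for Cfi, -0.29 for C1s1, -0.27 for Proz, -0.26 for C9, -0.24 for Proc, -0.23 for Fgb, -0.22 for F10, -0.22 for C8b and -0.21 for Hc, and 0.19 for Serpinf2. These are 14 of 39 genes, where 7.11% of all tested genes had a called interaction. C4bp, F11, Fgg, Fgb, Proz and Serpinf2 fell in both genotypes, and C1s1 was called in opposite directions. With 3 libraries in each group, no group was screened for a single library far from the others.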

How the results depend on the processing

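Each of 195 member comparisons was refitted under up to 21 settings, which gave 4044 values. Of these 3829 stayed on their side of the threshold, 140 lost the call, 71 gained one, and 4 changed sign with a call on either side. Among the 3829, 50 changed sign, each called under neither setting. All 4 were under scaling by total counts: Masp2 for KI against WT without treatment at 0.10, Kng1 for CP775146 in WT at -0.09, Fgb for KI against WT with CP775146 at 0.00, and Serpinc1 for CP775146 in WT at -0.00 log2.

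With the minimum fold change named under the methods, 18 genes were lower in KI with CP775146, 2 were higher and 14 lower in untreated KI cells, CP775146 lowered 9 in KI and raised 0 and lowered 6 in WT, and the interaction was called for 0 in each direction. Total counts gave 6 higher in KI with CP775146, 3 raised and 26 lowered by CP775146 in WT, and 2 higher for the interaction. For CP775146 in KI, limma voom raised 2 and the compared groups alone 1. The interaction had 2 higher genes under RLE scaling, no filter, DESeq2, limma voom and the replicate block.

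Leaving out each library in turn gave 3 higher and 28 to 29 lower for KI against WT with CP775146, 7 to 8 higher and 24 to 26 lower without, 0 to 1 raised and 23 to 26 lowered by CP775146 in KI, 6 to 8 raised and 16 to 17 lowered in WT, and 0 to 3 higher and 11 to 16 lower for the interaction. The replicate numbers did not pair the samples: deviations from the group means of same-numbered libraries correlated at -0.0264 to 0.0634, and of different numbers at -0.0733 to 0.0707. With the replicate block 193 of the 195 comparisons kept their call and 2 gained one. Depth limits F8 and C6, whose counts were at most 77 per library. The causes of these shifts were not tested.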
